A study of Mus musculus with 33 samples.

Results

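The genes described here are the Fc receptor genes that microglia, the resident macrophages of the brain, use to sense antibody, together with the signalling chain they share. They are Fcer1g, Fcgr1, Fcgr2b, Fcgr3, Fcgr4, Fcrls and Fcgrt, which are 7 of the 54146 genes listed for each library. They were taken by name as Fc receptor genes and the shared gamma chain, not by a rule on their values, though earlier results of these data were known. They are followed across all 10 groups of the series. RNA was measured in 33 libraries of sorted mouse microglia. The labels give every mouse as female and of the strain C57BL/6. IRF8 is a transcription factor of the interferon regulatory family that myeloid cells depend on. In dendritic cells it acts together with BATF3, a basic leucine zipper protein. The series compared microglia with and without each factor, and with and without an amyloid model.

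One experiment held WT and IRF8KO mice of 3 months (4 libraries each). Another, at 9 months, held WT, IRF8KO, 5xFAD (genotype label 5xFAD/WT) and 5xFAD/IRF8KO mice (3 libraries each). 5xFAD mice carry human amyloid transgenes expressed in neurons, and IRF8KO is a germline knockout, so the factor was missing from every cell of the body. A further experiment held Batf3KO mice (genotype label Batf3-/-), also a germline knockout, and a separate WT group, both of 3 months (3 libraries each). In the last, called IRF8cKO by the submitters, 3 libraries with the genotype IRF8flox (titled WT and called flox here) were set against 4 with the genotype IRF8floxCx3cr1CreERT2 (called Cre here). Both of these groups received tamoxifen on 5 consecutive days from postnatal day 12 and were examined at 3 months. There the Cre is switched on by tamoxifen and driven by Cx3cr1, a gene of microglia and other mononuclear phagocytes. The design text adds a Rosa26LSL-EYFP reporter by whose fluorescence cells were sorted. The flox genotype names no Cre, so the sort may have differed between flox and Cre.

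Fc receptors bind the constant region of antibodies. FcγRI (Fcgr1, high affinity for IgG), FcγRIII (Fcgr3) and FcγRIV (Fcgr4) are activating receptors that signal through the gamma chain encoded by Fcer1g, whose ITAM motif recruits the kinase Syk and drives phagocytosis and cytokine release. FcγRIIb (Fcgr2b) is the inhibitory receptor of the family, with an ITIM motif that recruits the phosphatase SHIP-1, encoded by Inpp5d. Fcrls is an Fc receptor-like gene known as a marker of microglia. Fcgrt encodes the heavy chain of the neonatal Fc receptor, which pairs with beta-2 microglobulin (B2m) and recycles IgG and albumin inside cells. Neutrophils and monocytes also express Fcgr3, Fcgr4 and Fcer1g.

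Of the 7 genes, 4 lie together on chromosome 1 of GRCm38. Fcgr2b (ENSMUSG00000026656.15) spans 170958617 to 170976547 on the minus strand, Fcgr4 (ENSMUSG00000059089.4) 171018920 to 171029761 on the plus strand, Fcgr3 (ENSMUSG00000059498.13) 171051174 to 171064935 on the minus strand and Fcer1g (ENSMUSG00000058715.11) 171229572 to 171234365 on the minus strand. They begin 19.86 to 20.12 Mb before Batf3, which spans 191097847 to 191108945 on the plus strand of the same chromosome. Fcgr1 (ENSMUSG00000015947.10) spans 96282909 to 96293969 and Fcrls (ENSMUSG00000015852.13) 87250758 to 87263738, both on the minus strand of chromosome 3. Fcgrt (ENSMUSG00000003420.8) spans 45092990 to 45103851 on the minus strand of chromosome 7. All 7 are protein-coding. Fcgr2b shares 155 exon bases, 2.68% of its exons, with the antisense gene Gm38204, and the reads carry no strand, so reads from that stretch cannot be assigned to one of them.

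Promoter sequences are shown for Fcgr1, Fcgr4 and Fcgr2b because their promoters held the motif matches. All 7 genes had an entry among 32851 RefSeq promoters (GRCm38.p6, 300 bases, from 250 before to 50 after the start), and Fcgr3 had 2. Both strands were searched for GGAANNGAAA (a composite of an ETS and an IRF site), GAAANNGAAA (an IRF repeat), GAGGAAGT (a core of the myeloid ETS factor PU.1), TTCNNNGAA (a STAT site) and TGAGTCA (a site of AP-1 and BATF factors). Matches are in capitals, 5′ to 3′ on the strand of the gene.
Fcgr1 promoter, chr3:96293980-96294119, minus strand: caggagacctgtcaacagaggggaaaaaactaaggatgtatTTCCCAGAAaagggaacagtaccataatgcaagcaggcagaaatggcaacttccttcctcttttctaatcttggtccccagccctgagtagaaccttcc
Fcgr4 promoter, chr1:171018776-171018915, plus strand: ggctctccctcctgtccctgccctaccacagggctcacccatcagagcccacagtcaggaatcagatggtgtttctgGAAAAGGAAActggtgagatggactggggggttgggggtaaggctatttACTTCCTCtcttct
Fcgr2b start region, chr1:170976087-170976116, minus strand: gaccgtttctTTTCACTTCCccatttggac
The capitals in Fcgr1 are a STAT match that begins 109 bases before the start, and 8.3% of all promoters held that motif. Those in Fcgr4 are an IRF repeat 73 bases before the start (3.44% of all promoters) and a PU.1 core on the opposite strand 24 bases before it (3.2%). The capitals in Fcgr2b are an ETS-IRF composite on the opposite strand, 35 bases before the start (2.72% of all promoters). TGAGTCA, found in 5.2% of all promoters, matched none of the members, and the windows of Fcgr3, Fcer1g, Fcrls and Fcgrt held none of the motifs. None of the matches overlapped another. A match describes letters in this window and was not tested for binding.

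Counts in genes ran from 605376 (a WT library of 9 months) to 18357762 (a Batf3KO library). Levels are CPM, gene counts relative to the library total, scaled with TMM factors within an experiment, unless another scale is named. Irf8 was 213 to 305 CPM in WT, compared with 90.3 to 153 CPM in IRF8KO at 3 months, and 586 to 681 CPM in WT, compared with 16.7 to 141 CPM in IRF8KO at 9 months. Batf3 itself was low without Irf8: it was 16.8 to 64.2 CPM in WT, while IRF8KO of 3 months had at most 1.72 CPM (log2 fold change -5.33, adjusted p = 0.00543), and none of the 6 IRF8KO and 5xFAD/IRF8KO libraries of 9 months had a Batf3 count. Batf3 was 23.5 to 26.9 CPM in the WT and 0.44 to 0.524 CPM in the Batf3KO libraries of its experiment. In the conditional experiment Irf8 was 972 to 1240 CPM in flox and 444, 367 and 521 CPM in Cre replicates 2, 3 and 4. The library labelled Cre replicate 1 had 1130 CPM of Irf8, inside the flox range and against its label, so the comparison of Cre with flox is given with and without it. Batf3 was higher in Cre replicates 2 to 4 (34.7 to 67.6 CPM) than in flox (1.93 to 4.57 CPM) or Cre replicate 1 (1.32 CPM).

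The libraries without Irf8 also differed in cell markers. A list of 11 microglial genes made up 1.36% to 2.59% of gene counts in the WT libraries of 3 months, 0.548% to 1.12% in IRF8KO of that age, and 7.09% to 7.26% in WT, 5.72% to 6.47% in 5xFAD, 0.339% to 0.856% in IRF8KO and 0.654% to 0.794% in 5xFAD/IRF8KO at 9 months. A list of 13 neutrophil genes made up 0.879% to 5.4% of the WT and 7.77% to 16.6% of the IRF8KO libraries aged 3 months. The 9-month shares were 0.075% to 0.0814% in WT, 0.0647% to 0.078% in 5xFAD, 6.54% to 9.11% in IRF8KO and 8.25% to 14.9% in 5xFAD/IRF8KO. In WT at 9 months 7 of these 13 genes had no count in any library, while in IRF8KO all 13 had counts. The 8 monocyte genes made up at most 0.000418% in WT, as opposed to 0.559% to 1.49% in IRF8KO at 9 months. Markers of other cells moved too at that age. Called higher in IRF8KO were 7 of 7 red blood cell markers (at most 0.00529% of gene counts in WT, 2.39% to 15.8% in IRF8KO), 8 of 8 neuronal markers, 7 of 8 oligodendrocyte markers and 6 of 6 astrocyte markers. The share of reads that fell in genes was 74.7% to 77.3% in WT, as opposed to 48.6% to 53.4% in IRF8KO. The part of these cells and of the lower share of reads in genes in the values of the Fc receptor genes was not tested, and in bulk RNA fewer cells of a type and less RNA per cell cannot be told apart.

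**Figure D1:**
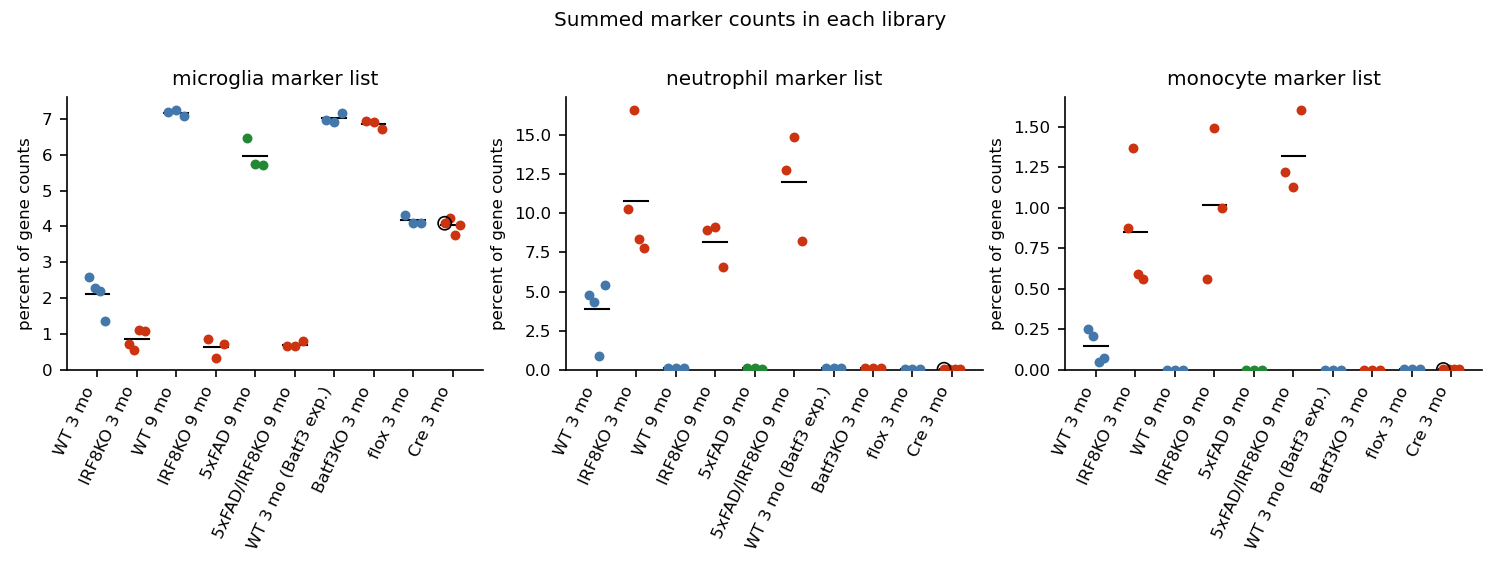
Share of gene counts (percent, linear axes from 0) taken by the summed microglia, neutrophil and monocyte marker lists in each of the 33 libraries (points; lines are group means; blue, control groups; red, knockout groups; green, 5xFAD; open circle, Cre replicate 1). The IRF8KO and 5xFAD/IRF8KO groups had the lowest microglial and the highest neutrophil and monocyte shares, while the groups of the Batf3KO and conditional experiments had neutrophil shares of at most 0.11%.

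Per length of transcript, the gamma chain was the most abundant member in 8 of the 10 groups. On the TPM scale (the share of transcripts, corrected for summed exon length) Fcer1g was 4760 ± 1350 in WT at 3 months (SD, n = 4) and 4030 ± 369 in WT at 9 months (SD, n = 3). Fcrls led in both groups of the Batf3KO experiment, with 5850 ± 175 TPM in WT (SD, n = 3). Fcgr3 was the most abundant of the Fcγ receptors in all 10 groups, at 3980 ± 371 TPM in WT of 9 months, while the inhibitory Fcgr2b was 241 ± 6.68 TPM and Fcgr4 25.4 ± 6.95 TPM there (SD, n = 3). Fcgr4 was the least abundant member in all 7 groups that carried Irf8 or lost it through Cre. In the 3 groups with the germline Irf8 knockout the least abundant member was Fcgr1, at 44.2 ± 15.7 TPM at 3 months (SD, n = 4), 19.4 ± 12.4 TPM in IRF8KO and 11.8 ± 8.72 TPM in 5xFAD/IRF8KO at 9 months (SD, n = 3 each).

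**Figure D2:**
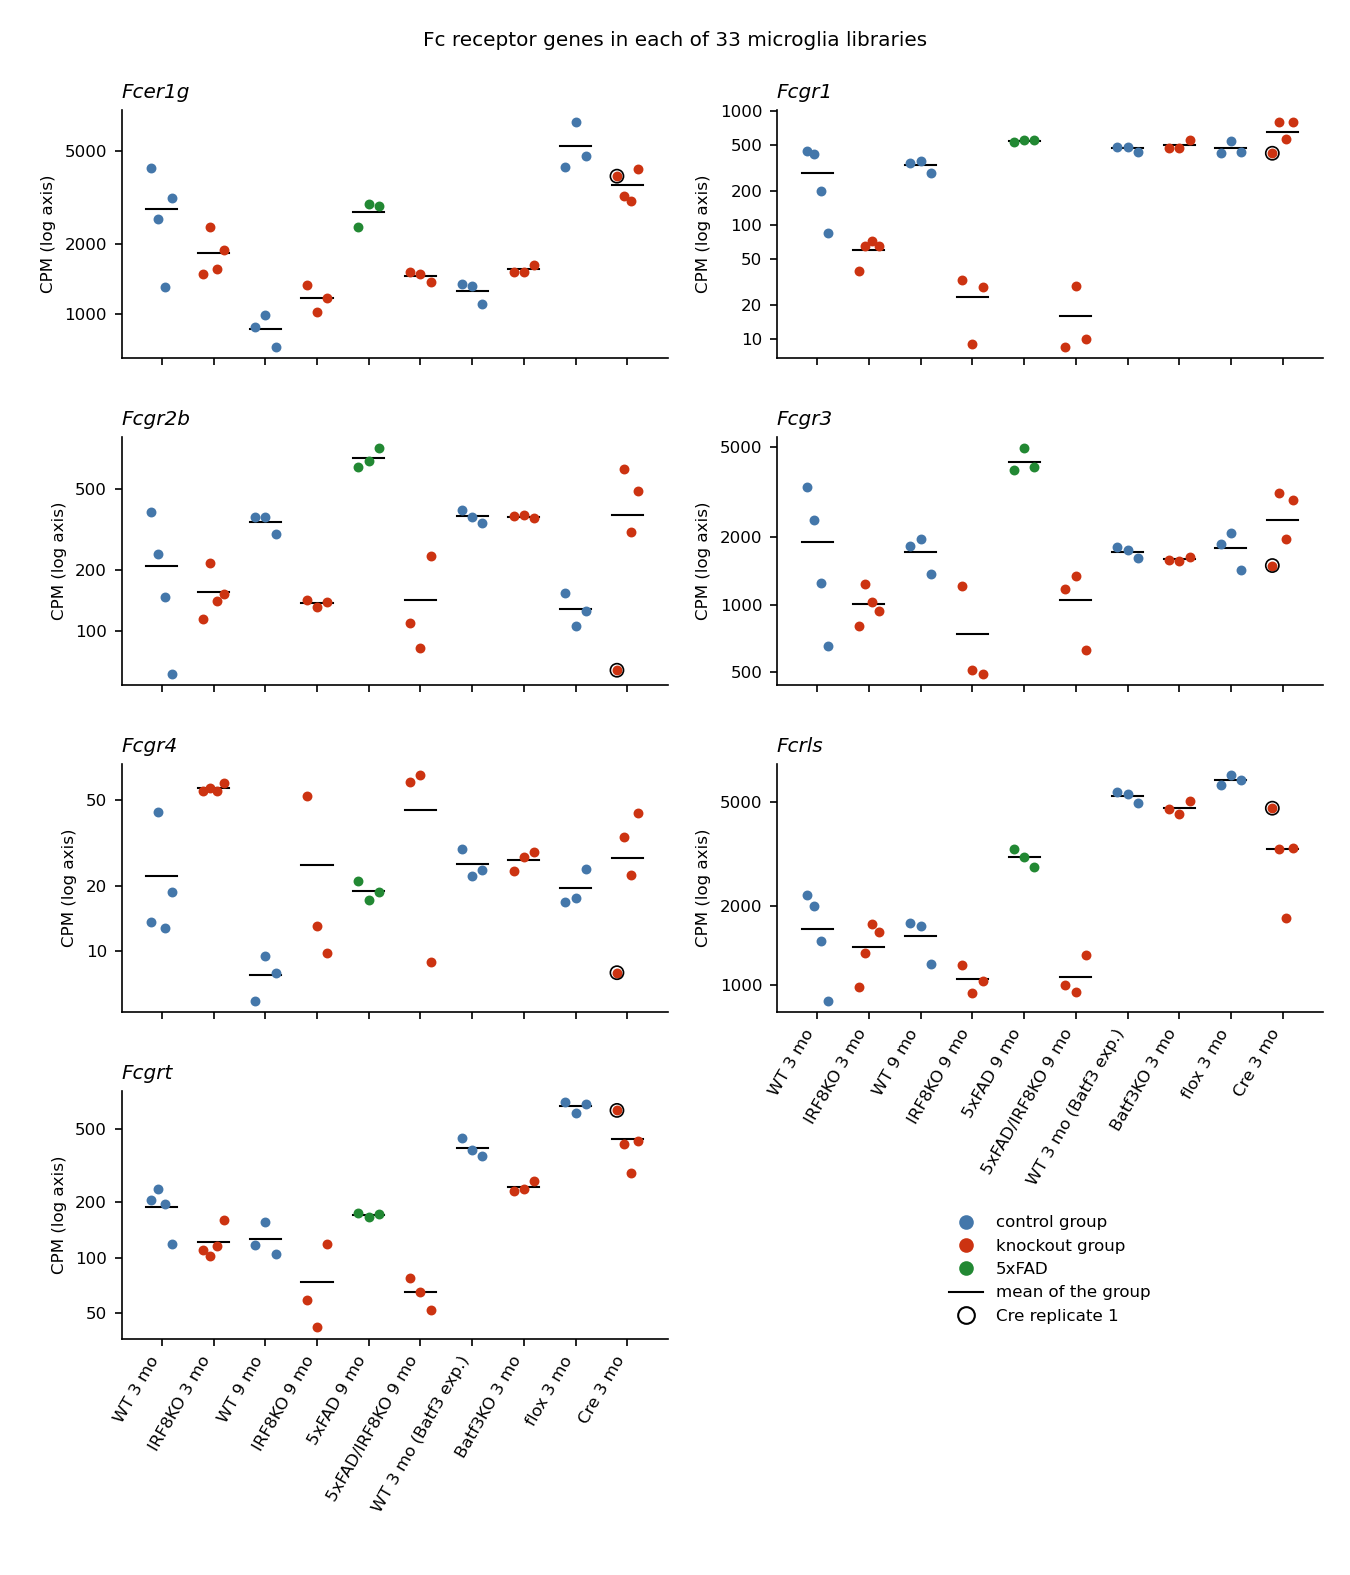
Level of each member in each of the 33 libraries, as CPM scaled over all 33 libraries together (log axes; points are libraries; lines are group means; blue, control groups; red, knockout groups; green, 5xFAD; open circle, Cre replicate 1). Fcgr1 sat lowest in the 3 germline Irf8 knockout groups, and Fcgr2b and Fcgr3 were highest in 5xFAD.

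Scaled over all 33 libraries, Fcgr1 had the widest span of group means among the 7 genes. It was highest in Cre (650 ± 186 CPM, n = 4), followed by 5xFAD (548 ± 9.28), Batf3KO (500 ± 47.6), flox (473 ± 66.7), WT of the Batf3KO experiment (469 ± 26.2), WT at 9 months (335 ± 43.2) and WT at 3 months (287 ± 176 CPM), and lowest in IRF8KO at 3 months (60.6 ± 14.6), IRF8KO at 9 months (23.5 ± 12.7) and 5xFAD/IRF8KO (15.9 ± 11.5 CPM, SD, n = 3 or 4). The highest mean was 40.9 times the lowest, against 5.53 to 10.2 times for the other members. Of the 9 pairs of neighbours in the order of Fcgr1, 6 had overlapping libraries, and the step from WT to IRF8KO at 3 months was one that did not overlap.

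Fcgr2b ran from 708 ± 77.8 CPM in 5xFAD to 128 ± 23.9 CPM in flox, and 8 of its 9 pairs of neighbours overlapped. Fcgr3 ran from 4310 ± 539 CPM in 5xFAD to 737 ± 406 CPM in IRF8KO at 9 months, with 7 of 9 pairs overlapping. Both therefore had their highest mean in the amyloid model. Fcgr4 had its highest mean in IRF8KO at 3 months (56.5 ± 2.28 CPM, n = 4) and its lowest in WT at 9 months (7.74 ± 1.81 CPM, n = 3), with 8 of 9 pairs overlapping. Fcer1g ran from 5230 ± 1260 CPM in flox to 867 ± 134 CPM in WT at 9 months, with 6 of 9 pairs overlapping. Fcrls (6050 ± 247 CPM) and Fcgrt (663 ± 45.9 CPM) were also highest in flox, and had 7 overlapping pairs each. Fcrls was lowest in IRF8KO at 9 months (1050 ± 127 CPM) and Fcgrt in 5xFAD/IRF8KO (64.9 ± 12.9 CPM; SD, n = 3 in each group named). Since each control group belongs to its own experiment, levels across experiments also carry differences of preparation.

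At 3 months, 1 of the 7 genes was lower in IRF8KO, the high-affinity receptor gene Fcgr1. In this comparison 3.24% of all tested genes were lower at an adjusted p under 0.05 (edgeR's quasi-likelihood test, Benjamini-Hochberg). Fcgr1 was 436, 395, 173 and 82.1 CPM in the 4 WT libraries, by replicate number, compared with 36.5, 62.0, 64.1 and 61.4 CPM in IRF8KO. The WT libraries were spread widely, with replicate 4 the lowest, but on the CPM scale every one lay above all 4 IRF8KO libraries. On the TPM scale Fcgr1 overlapped, with 43.8 to 267 TPM in WT and 26.8 to 61.6 TPM in IRF8KO. Its log2 fold change was -2.28 (SE 0.485, adjusted p = 0.0162). Without IRF8KO replicate 1 the log2 fold change was -2.11 and the adjusted p 0.0729.

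Fcgr4, an activating receptor gene, stood on the other side. It was 13.2, 41.3, 11.1 and 18.1 CPM in WT, compared with 50.9, 53.5, 48.8 and 56.1 CPM in IRF8KO. No IRF8KO library reached down to the highest WT library, yet the difference did not pass the test (log2 fold change 1.31, SE 0.44, adjusted p = 0.0871). It passed when WT replicate 2 was left out (1.89, adjusted p = 0.0184) and with DESeq2 (adjusted p = 0.0484). The neutrophil share was higher in the same libraries, and its part in the value of Fcgr4 was not tested.

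The other activating and inhibitory genes overlapped between genotypes at 3 months. Fcgr3 was 3230, 2240, 1100 and 632 CPM in WT, compared with 744, 1180, 909 and 881 CPM in IRF8KO (log2 fold change -0.96, adjusted p = 0.252). Fcgr2b was 376, 226, 129 and 59.4 CPM in WT, compared with 106, 204, 124 and 143 CPM in IRF8KO (log2 fold change -0.45, not past the test), and its sign turned without WT replicate 1 (0.11). WT replicates 3 and 4 had the low values of Fcgr3 and Fcgr2b. Fcer1g was 4110, 2410, 1150 and 3030 CPM in WT, compared with 1380 to 2240 CPM in IRF8KO (adjusted p = 0.393), so in WT replicate 4 the gamma chain was high while the receptors were low. The count ratio of Fcer1g to Fcgr3 was 4.79 in that library and 1.05 to 1.28 in the other WT libraries. Fcrls (846 to 2140 CPM in WT, 916 to 1510 CPM in IRF8KO, adjusted p = 0.751) and Fcgrt (115 to 223 CPM in WT, 96.2 to 152 CPM in IRF8KO, adjusted p = 0.233) did not pass the test.

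At 9 months Fcgr1, Fcgr2b and Fcgr3 were lower without Irf8, 3 of the 7 genes, where 8.68% of all tested genes were lower. Fcgr1 was 368, 396 and 309 CPM in WT, compared with 36.6, 10.1 and 31.4 CPM in IRF8KO. The groups were far apart, with a log2 fold change of -3.78 (SE 0.542, adjusted p = 0.000318). The inhibitory gene Fcgr2b was 380, 393 and 323 CPM in WT, compared with 157, 147 and 153 CPM in IRF8KO, a narrow group well below WT, and fell by 1.27 (SE 0.333, adjusted p = 0.014). With all 33 libraries in one model its adjusted p was 0.0802. Fcgr3 was 1910, 2090 and 1460 CPM in WT, compared with 1340, 573 and 543 CPM in IRF8KO, where replicate 1 came close to the lowest WT library. On the TPM scale the groups lay further apart, with 3650 to 4380 TPM in WT and 438 to 1460 TPM in IRF8KO. Fcgr3 fell by 1.15 (SE 0.375, adjusted p = 0.0372), a call that was lost without WT replicate 1 (adjusted p = 0.0691), WT replicate 2 (0.115), IRF8KO replicate 2 (0.0793) or IRF8KO replicate 3 (0.0751), and in a fit of these 2 groups only (0.0947).

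IRF8KO replicate 1 of 9 months stood apart for Fcgr4, as it did for Fcgr3. Fcgr4 was 6.14, 10.2 and 8.51 CPM in WT, compared with 57.9, 14.6 and 10.8 CPM in IRF8KO (log2 fold change 1.75, adjusted p = 0.123). On the CPM scale all 3 knockout libraries lay above WT, but replicate 1 carried most of the difference. On the TPM scale the groups overlapped, with 17.4 to 29.5 TPM in WT and 15.4 to 87.4 TPM in IRF8KO. The median there was lower in IRF8KO, at 18.7 TPM against 29.4 TPM in WT. Irf8 itself was 141 CPM in replicate 1 against 16.7 and 75.9 CPM in replicates 2 and 3. In the model of all 33 libraries Fcgr4 passed the test (log2 fold change 1.94, adjusted p = 0.0191).

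The gamma chain and the remaining members did not pass the test at 9 months. Fcer1g was 921, 1070 and 784 CPM in WT, compared with 1490, 1140 and 1290 CPM in IRF8KO (log2 fold change 0.50, adjusted p = 0.0968). On the TPM scale it had the opposite order, with 3750 to 4450 TPM in WT and 1730 to 3230 TPM in IRF8KO, so its direction depended on the scaling. Fcrls was 1810, 1800 and 1290 CPM in WT, compared with 1320, 1040 and 1140 CPM in IRF8KO (log2 fold change -0.48, adjusted p = 0.124), and passed without WT replicate 3 (-0.73, adjusted p = 0.0436) or without IRF8KO replicate 1 (-0.70, adjusted p = 0.0445). On the TPM scale the gap in Fcrls was wider and the groups did not overlap (2400 to 2810 TPM in WT, 593 to 1070 TPM in IRF8KO). Fcgrt was 122, 168 and 112 CPM in WT, compared with 65.8, 46.7 and 131 CPM in IRF8KO (log2 fold change -0.72, adjusted p = 0.144). On that scale its replicate 3 lay inside the WT range, and without it Fcgrt passed the test (-1.37, adjusted p = 0.00778). On the TPM scale Fcgrt did not overlap, with 207 to 289 TPM in WT and 29.5 to 135 TPM in IRF8KO.

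The effect of Irf8 loss was also compared between the ages, a difference of differences in which 24% of all tested genes passed. Each age was its own experiment, so age and experiment cannot be told apart here. The WT groups also differed, with microglial shares of 1.36% to 2.59% at 3 months and 7.09% to 7.26% at 9 months. None of the 7 members passed with edgeR, and 1 had an unadjusted p under 0.05. That member was Fcer1g, whose effect was 1.24 higher at 9 months on the log2 scale (SE 0.542, adjusted p = 0.106). DESeq2 gave it an adjusted p of 0.0309, the model of all 33 libraries 0.0104, and a fit without WT replicate 3 of 3 months 0.0244. On the TPM scale mean Fcer1g was lower in IRF8KO at both ages. It was 4760 TPM in WT and 3820 TPM in IRF8KO at 3 months, and 4030 and 2730 TPM at 9 months. The direction of this difference between the ages was not tested on that scale. The difference for Fcgr1 was -1.42 (SE 0.707, adjusted p = 0.156).

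**Figure D3:**
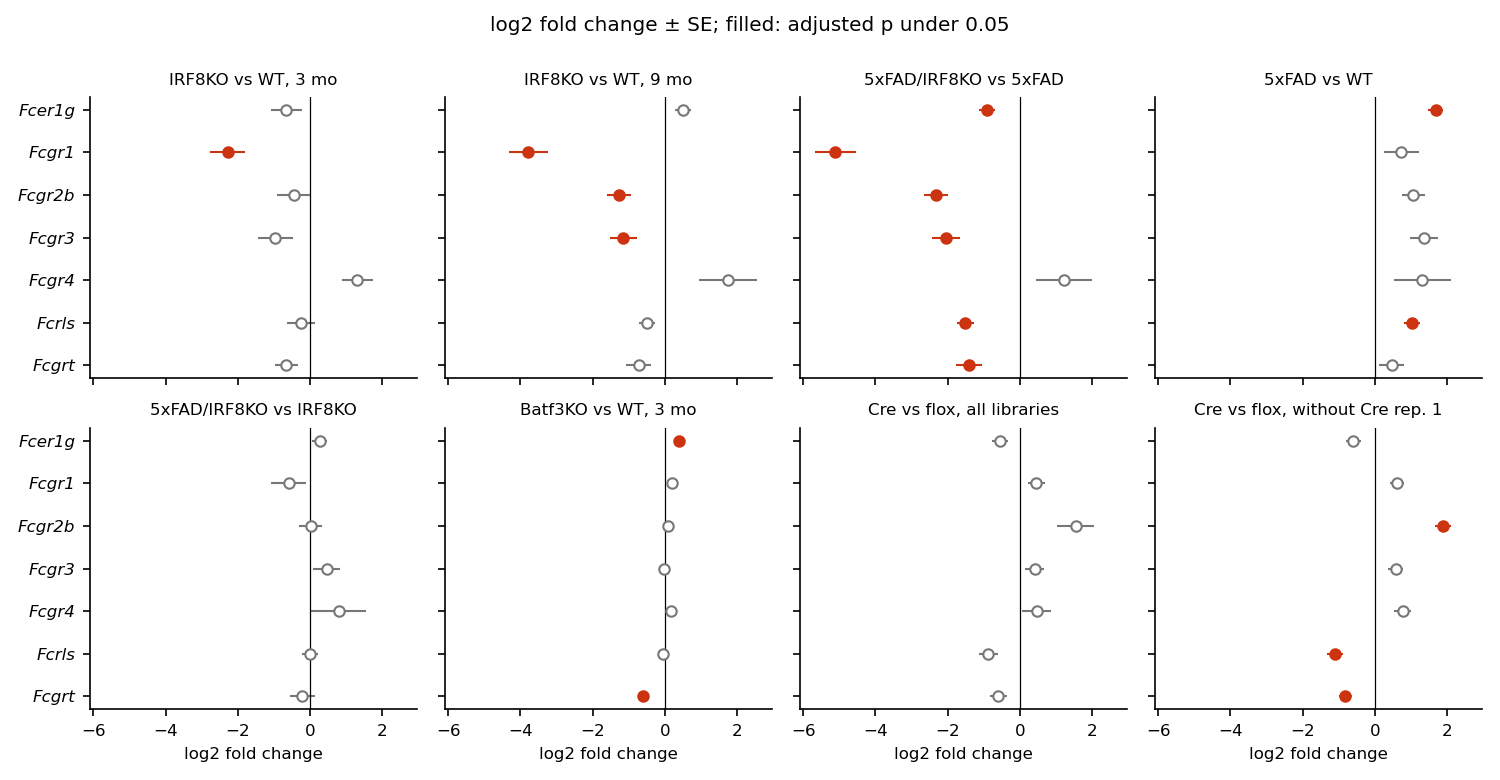
log2 fold change of each member in 8 fits (points; bars are ± 1 SE; filled red points had an adjusted p under 0.05 in edgeR's quasi-likelihood test). Fcgr1 lay furthest left in the 3 comparisons of germline Irf8 loss, and 6 of 7 members were called lower in 5xFAD/IRF8KO against 5xFAD.

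In 5xFAD microglia the gamma chain and Fcrls rose, 2 of the 7 genes, where 1.81% of all tested genes were higher. Fcer1g was 921, 1070 and 784 CPM in WT, compared with 2480, 3240 and 3200 CPM in 5xFAD, with every 5xFAD library above every WT library. Its log2 fold change was 1.68 (SE 0.216, adjusted p = 0.0106). Leaving out WT replicate 1 (adjusted p = 0.13), WT replicate 3 (0.104), 5xFAD replicate 2 (0.0697) or 5xFAD replicate 3 (0.0619) ended the call. Fcrls was 1810, 1800 and 1290 CPM in WT, compared with 3480, 3370 and 3130 CPM in 5xFAD, again without overlap, and rose by 1.03 (SE 0.224, adjusted p = 0.0405). On the TPM scale neither gene overlapped, but both differences were smaller, from 4030 ± 369 to 7990 ± 1070 TPM for Fcer1g and from 2650 ± 224 to 3360 ± 214 TPM for Fcrls (SD, n = 3). The call of Fcrls was lost whenever any 1 of the 6 libraries was left out (adjusted p 0.116 to 0.237). It was also lost with DESeq2-type size factors (adjusted p = 0.0537) and without a filter on low counts (0.0508).

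The Fcγ receptor genes were higher in every 5xFAD library than in any WT library on the CPM scale, and did not pass the test. Fcgr1 was 368, 396 and 309 CPM in WT, compared with 565, 606 and 612 CPM in 5xFAD (log2 fold change 0.73, adjusted p = 0.744). Fcgr2b was 380, 393 and 323 CPM in WT, compared with 675, 754 and 878 CPM in 5xFAD (1.07, adjusted p = 0.153). Fcgr3 was 1910, 2090 and 1460 CPM in WT, compared with 4160, 5400 and 4490 CPM in 5xFAD (1.36, adjusted p = 0.0992). On this scale activating and inhibitory receptor genes sat on the same side of WT. How many of all genes had groups without overlap was not counted. Fcgr4, at 6.14, 10.2 and 8.51 CPM in WT, compared with 22.1, 18.8 and 20.7 CPM in 5xFAD (1.32, adjusted p = 0.681), and Fcgrt, at 122, 168 and 112 CPM and 184, 182 and 191 CPM (0.47, adjusted p = 0.807), also did not overlap. On the TPM scale Fcgr1 overlapped (505 to 555 in WT, 521 to 552 in 5xFAD). Fcgrt overlapped too, with the mean lower in 5xFAD (242 ± 42.4 against 208 ± 5.27 TPM, SD, n = 3). Fcgr2b, Fcgr3 and Fcgr4 did not overlap there, but differed by a smaller factor than in CPM. Their mean TPM in WT and 5xFAD was 241 and 312 for Fcgr2b, 3980 and 6340 for Fcgr3, and 25.4 and 38.5 for Fcgr4. The number called differed between fits: a fit of these 2 groups only, and limma voom with quality weights, each called 6 of the 7, all but Fcgrt. Those 2 fits also called far more of all genes, 4546 and 3821 against 290 in the main fit. Fcgr3 also passed with DESeq2 (adjusted p = 0.0112), and in edgeR without a filter (0.00517) and with all 33 libraries (0.0316).

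None of the 11 microglial, 13 neutrophil or 6 tested monocyte markers (of 8) was called between 5xFAD and WT. The monocyte list made up at most 0.000418% of gene counts in either group. The summed microglial share was lower in every 5xFAD library (5.72% to 6.47%) than in WT (7.09% to 7.26%). The sex label did not hold for all libraries. Although all are labelled female, Y-linked transcripts reached 10 CPM in 3 of 3 WT libraries and 1 of 3 5xFAD libraries of 9 months, and Xist in 0 and 2. Of the other groups, 3 of 4 WT and 4 of 4 IRF8KO libraries of 3 months had Y-linked transcripts at that level, as did 2 of 3 IRF8KO and 3 of 3 5xFAD/IRF8KO libraries of 9 months, with Xist in 2 of 3 of each of the last 2 groups. Both kinds of transcript reached 10 CPM in 3 of the 33 libraries. The part of sex in the values of these comparisons was not tested.

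Without Irf8 in the amyloid model, 6 of the 7 genes fell, where 9.72% of all tested genes were lower. The 9-month comparisons share their groups and are not independent of each other. Fcgr1 was 565, 606 and 612 CPM in 5xFAD and 9.08, 31.9 and 10.8 CPM in 5xFAD/IRF8KO, with a log2 fold change of -5.11 (SE 0.576, adjusted p = 5.46e-05). It showed the widest gap of all members. Fcgr2b was 675, 754 and 878 CPM in 5xFAD and 115, 90.0 and 256 CPM in 5xFAD/IRF8KO, a fall of 2.32 (adjusted p = 0.000416). Fcgr3 was 4160, 5400 and 4490 CPM and 1240, 1460 and 687 CPM (-2.05, adjusted p = 0.00212). Neither gene had any overlap between the groups. The gamma chain Fcer1g, at 2480, 3240 and 3200 CPM in 5xFAD and 1610, 1620 and 1500 CPM in 5xFAD/IRF8KO, fell by 0.91 (adjusted p = 0.00758).

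Fcrls and Fcgrt fell as well. Fcrls was 3480, 3370 and 3130 CPM in 5xFAD and 1060, 1020 and 1420 CPM in 5xFAD/IRF8KO (-1.51, adjusted p = 0.000459). Fcgrt was 184, 182 and 191 CPM and 82.2, 71.4 and 56.6 CPM (-1.41, adjusted p = 0.0117), and its partner gene B2m was 4250, 5390 and 5690 CPM and 1850, 1980 and 2070 CPM (-1.38, adjusted p = 0.000448). Fcgr4 was the exception, at 22.1, 18.8 and 20.7 CPM in 5xFAD and 64.2, 70.8 and 9.74 CPM in 5xFAD/IRF8KO (log2 fold change 1.23, adjusted p = 0.264). Its replicates 1 and 2 lay above and its replicate 3 below every 5xFAD library. No call among the 7 members changed under any alternative setting in this comparison. The neutrophil share of the 5xFAD/IRF8KO libraries was 8.25% to 14.9% against at most 0.078% in 5xFAD, and its part in these values was not tested.

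Between 5xFAD/IRF8KO and IRF8KO no member was called with edgeR and none had an unadjusted p under 0.05, where 0.164% of all tested genes passed. Fcgr1 was 9.08, 31.9 and 10.8 CPM with and 36.6, 10.1 and 31.4 CPM without the 5xFAD transgenes (log2 fold change -0.59). Fcer1g was 1610, 1620 and 1500 CPM with and 1490, 1140 and 1290 CPM without them (0.27), and Fcrls 1060, 1020 and 1420 CPM with and 1320, 1040 and 1140 CPM without them (-0.00). On the CPM scale only Fcer1g had groups that did not overlap among these 3. On the TPM scale it overlapped, with 2930 to 3310 TPM with and 1730 to 3230 TPM without the transgenes.

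The interaction asks whether the 5xFAD effect itself differed with Irf8 status. With edgeR none of the 7 members passed, 3 had an unadjusted p under 0.05, and 0.438% of all tested genes passed. The interaction was -1.41 for Fcer1g (SE 0.299, adjusted p = 0.0622), -1.03 for Fcrls (adjusted p = 0.154) and -1.06 for Fcgr2b (adjusted p = 0.318). DESeq2 called Fcer1g (adjusted p = 0.000459) and Fcrls (0.0126). Fcer1g also passed in the model of all 33 libraries (0.0239) and without IRF8KO replicate 2 (0.0485), and Fcgr2b passed without 5xFAD/IRF8KO replicate 3 (-1.63, adjusted p = 0.0339).

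The ratio of Fcgr1 to Fcgr2b counts sets an activating receptor gene against the inhibitory one within a library, so that scaling between libraries drops out. The pair was chosen after its values were seen, and the ratio is given as a description. At 3 months the WT libraries lay between 1.16 and 1.75 and the IRF8KO libraries between 0.303 and 0.516. At 9 months it was 0.955 to 1.01 in WT, 0.697 to 0.838 in 5xFAD, 0.0688 to 0.234 in IRF8KO and 0.0424 to 0.354 in 5xFAD/IRF8KO. Every library of the germline Irf8 knockout thus lay below every library of the other 7 groups. It was 1.24 to 1.32 in WT and 1.27 to 1.54 in Batf3KO. In the conditional experiment it was 2.82, 5.25 and 3.5 in flox, 6.68 in Cre replicate 1 and 1.29, 1.87 and 1.63 in Cre replicates 2 to 4. There the lower ratio went with higher Fcgr2b counts, not with lower Fcgr1 counts.

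**Figure D4:**
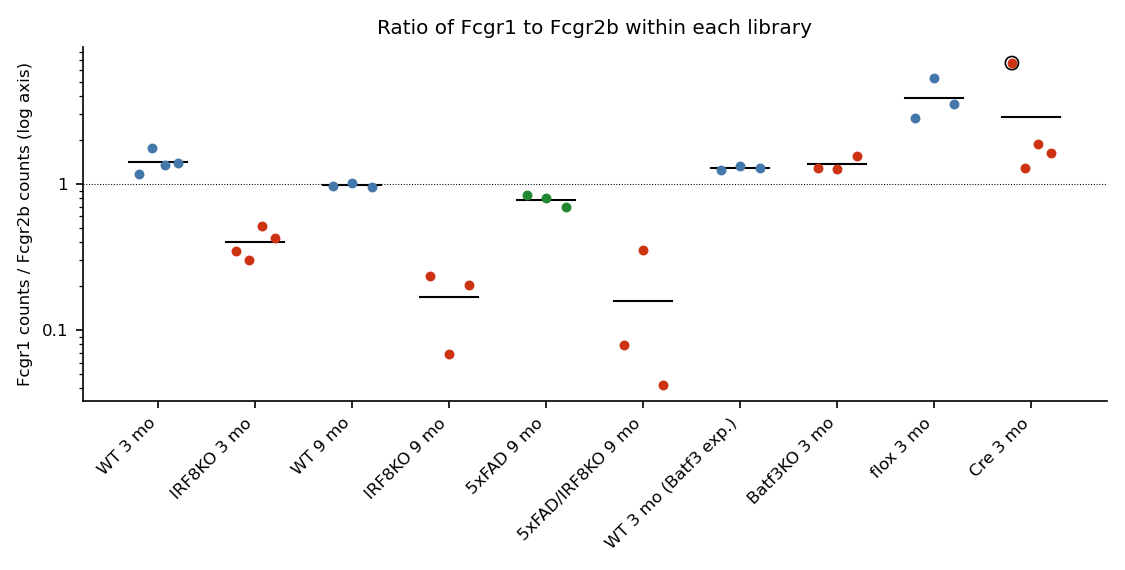
Ratio of Fcgr1 to Fcgr2b counts in each library (log axis; points are libraries; lines are group means; dotted line, a ratio of 1; blue, control groups; red, knockout groups; green, 5xFAD; open circle, Cre replicate 1). The 3 germline Irf8 knockout groups sat at or below 0.516, and Cre replicate 1 at 6.68 sat apart from the other Cre libraries.

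In Batf3KO the gamma chain gene rose and Fcgrt fell. In this comparison 1.41% of all tested genes were higher, 2.42% lower and 3.83% changed in either direction, and 2 of the 7 members were called. Fcer1g was 1090, 1100 and 971 CPM in WT, compared with 1370, 1390 and 1420 CPM in Batf3KO. The replicates were tight and the groups apart, with a log2 fold change of 0.40 (SE 0.0684, adjusted p = 0.00536). Fcgrt was 361, 322 and 314 CPM in WT, compared with 208, 215 and 227 CPM in Batf3KO, and fell by 0.62 (SE 0.0811, adjusted p = 0.000782). Both calls were lost in the model of all 33 libraries (adjusted p = 1 for each).

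The receptor genes next to Fcer1g did not pass the test. Fcgr3 was 1460, 1460 and 1420 CPM in WT, compared with 1440, 1420 and 1400 CPM in Batf3KO (log2 fold change -0.02, adjusted p = 0.898). Fcgr2b was 318, 305 and 299 CPM in WT, compared with 334, 338 and 313 CPM in Batf3KO (0.10, adjusted p = 0.539), and Fcgr4 was 18.4 to 23.9 CPM and 21.2 to 24.9 CPM (0.16, adjusted p = 0.618). Of the 4 members on chromosome 1, Fcer1g alone was called. Fcgr1 was 394, 402 and 386 CPM in WT, compared with 431, 431 and 483 CPM in Batf3KO, without overlap but not past the test (0.19, adjusted p = 0.198). Fcrls was 4390, 4490 and 4360 CPM in WT, compared with 4290, 4100 and 4360 CPM in Batf3KO (-0.05, adjusted p = 0.659).

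The stretch of chromosome 1 that holds these genes had a high share of called genes in Batf3KO. From 170 to 180 Mb, 22 of 89 tested genes were called (24.7%), against 3.66% of genes on other chromosomes. In the bin of Batf3 itself, 190 to 200 Mb, 2 of 34 were called (5.88%), and from 180 to 190 Mb 5 of 51 (9.8%). In the IRF8KO comparison at 3 months, 7 of 91 genes of the bin from 170 to 180 Mb were called (7.69%), against 7.39% of all tested genes. Within 0.5 Mb on either side of the Fc receptor genes, 8 of 33 tested genes were called in Batf3KO, 2 of them higher (Fcer1g and the SLAM family receptor gene Cd244a). The lower ones included Fcrlb, an Fc receptor-like gene, at -2.50 on the log2 scale, and Olfml2b at -2.30; these neighbours were named after their values were seen. For Fcer1g, its place on the arm of the targeted gene and the loss of BATF3 itself cannot be told apart in this design.

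**Figure D5:**
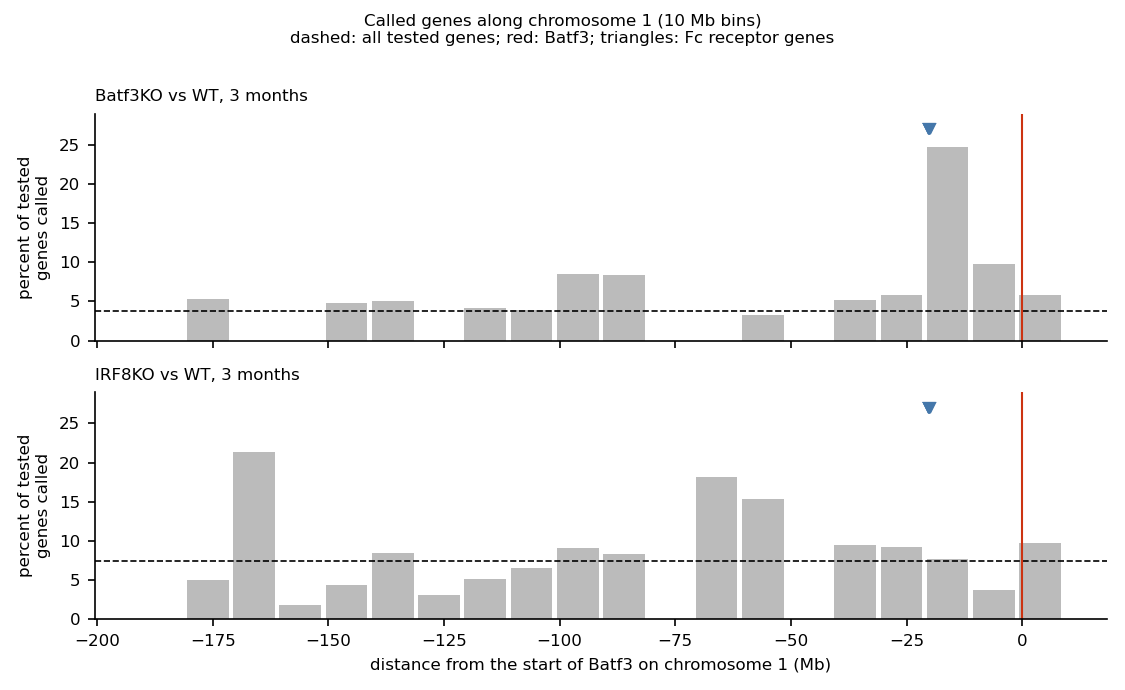
Percent of tested genes called (adjusted p under 0.05) in bins of 10 Mb along chromosome 1, by distance from the start of Batf3 (red line), in Batf3KO against WT (top) and IRF8KO against WT at 3 months (bottom); dashed lines are the shares of all tested genes, 3.83% and 7.39%, and triangles mark the 4 Fc receptor genes. In Batf3KO the bin of the Fc receptor genes was the highest, at 24.7%.

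Set directly against each other at 3 months, the effects of Irf8 and Batf3 loss differed for 1 of the 7 members, Fcgr1, where 3.22% of all tested genes differed. Fcgr1 fell by 2.28 without Irf8 and was 0.19 higher without Batf3 on the log2 scale, and the difference was -2.34 (SE 0.577, adjusted p = 0.0404). That difference comes from a joint fit of both experiments with its own filter and scaling, so it need not equal the gap between the separately fitted values. Since Batf3 was also low in IRF8KO, Batf3 was low in the knockouts on both sides of this comparison. The call was lost when any 1 of 12 of the 14 libraries was left out (adjusted p 0.0519 to 0.121), all but WT replicates 3 and 4 of the IRF8KO experiment.

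In the conditional knockout no member was called when all 7 libraries entered, and 0% of all tested genes were. At an unadjusted p under 0.05 there were 4 members and 1407 of 15512 genes. Without filtering on low counts Fcgr2b and Fcrls passed, and limma voom called Fcrls (adjusted p = 0.0312). Without Cre replicate 1, whose Irf8 level went against its label, 3.74% of all tested genes were higher and 2.5% lower, and 3 of the 7 members were called. That replicate was set aside for its Irf8 level, after the data were seen.

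The inhibitory receptor gene rose. Fcgr2b was 164, 114 and 135 CPM in flox, 68.8 CPM in Cre replicate 1 and 676, 332 and 524 CPM in Cre replicates 2 to 4. Those 3 libraries lay far above flox, while replicate 1 lay below it. Fcgr2b rose by 1.89 without replicate 1 (SE 0.226, adjusted p = 7.65e-06), and was 1.54 higher with it (adjusted p = 0.351). Fcgr1 was 463, 597 and 471 CPM in flox, 460 CPM in Cre replicate 1 and 872, 620 and 855 CPM in the others (0.61 without replicate 1, adjusted p = 0.057; 0.46 with it). Its 3 libraries lay above flox and did not pass the test.

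Fcrls and Fcgrt fell in the Cre libraries other than replicate 1. Fcrls was 6260, 6850 and 6490 CPM in flox, 5110 CPM in Cre replicate 1 and 3560, 1970 and 3580 CPM in replicates 2 to 4 (-1.11, SE 0.223, adjusted p = 0.00274 without replicate 1; -0.88, adjusted p = 0.292 with it). Fcgrt was 752, 664 and 731 CPM in flox, 682 CPM in Cre replicate 1 and 446, 313 and 459 CPM in the others (-0.82, SE 0.183, adjusted p = 0.00684; -0.59, adjusted p = 0.428 with it). For both genes the 3 libraries lay below flox. Without replicate 1, Fcer1g (flox 4600, 7230 and 5110 CPM, Cre 3450, 3310 and 4490 CPM; -0.59, adjusted p = 0.131), Fcgr3 (flox 2000, 2250 and 1540 CPM, Cre 3390, 2120 and 3130 CPM; 0.58, adjusted p = 0.141) and Fcgr4 (flox 18.1, 19.0 and 25.8 CPM, Cre 36.2, 24.5 and 46.6 CPM; 0.77, adjusted p = 0.0562) did not pass the test.

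Neutrophil markers stayed low here, but not every list of other cells did. Neuronal markers made up 0.0311% to 0.0419% of gene counts in flox and 0.0258% to 0.0566% in Cre. For red blood cell markers it was 0.0622% to 0.0735% and 0.0416% to 0.187%. The B cell list made up 0.0236% to 0.0358% in flox, and 0.0529%, 0.0524% and 0.0575% in Cre replicates 2 to 4. The neutrophil list made up 0.0275% to 0.0418% of gene counts in flox and 0.0163% to 0.0285% in Cre, and the microglial list 4.09% to 4.33% and 3.76% to 4.24%. Among 9 markers of border macrophages, the macrophages of the meninges and vessels, 4 were called lower without Cre replicate 1. The summed share of that list was 0.0122% to 0.017% in flox, 0.0214% in Cre replicate 1, and 0.00106%, 0.000742% and 0.00122% in Cre replicates 2 to 4, all below flox. Without that replicate 4 of the 11 microglial markers were called higher and 1 lower. The part of these markers in the values of the Fc receptor genes was not tested.

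The conditional effect was then set against the germline effect at 3 months, all libraries included, where 7.04% of all tested genes differed. Of the 7 members 1 differed, Fcgr1, which fell by 2.28 in IRF8KO and was 0.46 higher in Cre, with a difference of 2.81 on the log2 scale (SE 0.597, adjusted p = 0.00975), again from a joint fit of its own. The difference was 2.06 for Fcgr2b (adjusted p = 0.129) and 1.44 for Fcgr3 (adjusted p = 0.154). Fcgr2b passed without Cre replicate 1 (2.41, adjusted p = 0.0319), Fcgr3 passed without WT replicate 4 of 3 months (1.74, adjusted p = 0.0282), and 3 members passed with both libraries left out. The 2 designs differ in the time of deletion, in tamoxifen and in the reporter used for sorting. They also differ in the cells that lost Irf8 and in the neutrophil content of the libraries, and these differences cannot be told apart.

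The rest of the pathway was followed through fixed lists. Among 18 genes of activating signalling, which includes the Src family kinases, Syk and its adaptors, 4 rose and 0 fell in IRF8KO at 3 months, with a median log2 fold change of 0.667 against -0.0202 for all genes. Of all tested genes 4.15% were higher there and 3.24% lower. Of 8 inhibitory genes 1 rose there. Of the 7 tested adaptors and receptors that use the gamma chain or its relative Dap12, 1 rose and 1 fell. At 9 months 4 activating genes rose and 8 fell (median -1.21 against 0.248 for all genes), 2 inhibitory genes rose and 1 fell, and 5 adaptors or receptors rose and 1 fell, where 19.6% of all tested genes were higher and 8.68% lower. The Src family kinase gene Fgr was among those that rose, with a mean of 4.98 CPM in WT, compared with 155 CPM in IRF8KO (log2 fold change 4.95, adjusted p = 4.51e-05). Trem2, a lipid receptor gene whose protein signals through Dap12, fell by 1.98 (1180 CPM in WT, compared with 301 CPM in IRF8KO on average, adjusted p = 0.00322). The lectin receptor gene Clec4n, whose protein pairs with the gamma chain, had a mean of 0.213 CPM in WT, compared with 121 CPM in IRF8KO at 9 months (adjusted p = 2.14e-05). It was 8.44 CPM in WT, compared with 133 CPM in IRF8KO at 3 months (log2 fold change 3.98, adjusted p = 0.00702). The neutrophil and monocyte shares were higher in the same IRF8KO libraries, and their part in the values of these pathway genes was not tested.

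In 5xFAD against WT none of the 18 activating or 8 inhibitory genes was called with edgeR, with 2 and 0 of them at an unadjusted p under 0.05. The adaptor genes Tyrobp (Dap12; log2 fold change 2.10, adjusted p = 0.0123) and Hcst (Dap10; 1.76, adjusted p = 0.0454) rose, as did B2m (1.37, adjusted p = 0.0139). The calls of Tyrobp and B2m were lost without any 1 of 5 of the 6 libraries, 5xFAD replicate 1 being the exception, and that of Hcst without any 1 of the 6. In 5xFAD/IRF8KO against 5xFAD, 4 activating genes rose and 3 fell, 3 inhibitory genes rose and 1 fell, and 4 adaptors or receptors rose and 2 fell, where 18% of all tested genes were higher and 9.72% lower. The adaptor genes Lat2 (147 CPM in 5xFAD and 23.8 CPM in 5xFAD/IRF8KO; -2.63, adjusted p = 0.00143) and Blnk (448 and 79.3 CPM; -2.50, adjusted p = 0.000682) fell there, with Tyrobp (6310 and 2170 CPM; -1.54, adjusted p = 0.00277). In Batf3KO the 1 signalling gene called was Lat2 (129 CPM in WT, compared with 40.6 CPM in Batf3KO; -1.66, adjusted p = 1.1e-06), an adaptor that Syk phosphorylates. Lat2 went the other way in the conditional experiment without Cre replicate 1 (1.41, adjusted p = 0.000104), where 4 activating genes rose.

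For the members other than Fcgr4, the genes whose log2(CPM + 1) was most alike over the 33 libraries were taken by Pearson's r among 13939 genes. These values describe likeness across libraries that share groups, depth and cell content, and carry no test. Fcer1g was most like Tyrobp (r = 0.97) and Atp6v0e, a proton pump subunit gene (0.951). Fcgr1 was most like the microglial genes Siglech (0.978) and C1qc (0.963), of which Siglech belongs to the microglial list. Fcrls was most like Slc3a2 (0.926) and Olfml3 (0.925), the latter also a microglial marker, and Fcgrt most like the lysosomal protease gene Ctsl (0.938) and Clta (0.919). Fcgr3 was most like the leukocyte gene Cd53 (0.915) and Cops4 (0.896), and Fcgr2b most like Snx5 (0.854) and Lmo2 (0.848). Among the members, Fcrls and Fcgrt were most alike (0.867), followed by Fcgr1 with Fcgrt (0.802) and with Fcgr3 (0.783), while Fcer1g and Fcgr2b had an r of -0.0559.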

How the data were processed

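RNA of FACS-sorted microglia, isolated from each brain without enzymes, was amplified over 15 cycles with SMART-Seq v4 and tagmented with Nextera XT, per the labels' protocols. There are no molecular identifiers, so reads are not independent molecules. The authors deposited raw counts of reads per gene, in 4 summary lines and 3 columns (1 ignoring strand, which was used). The submitters' processing notes name bcl2fastq, STAR 2.5.2b, Picard 2.17.11, Subread, featureCounts and mm10, without roles. Symbols and positions come from GENCODE M21 (GRCm38): 54079 of 54146 identifiers were found, 52480 with the same version. Reads in genes were 47.3% to 78.6% of a library.

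Genes were filtered with filterByExpr, scaled with TMM and tested in edgeR 4.0.16 (R 4.3.3) by quasi-likelihood, with Benjamini-Hochberg adjustment over all tested genes and calls at 0.05. The 12 libraries of 9 months shared 1 fit. Adjusted p-values are edgeR's where no other tool stands beside them. Scripts were tested on simulated data. Alternatives were DESeq2-type size factors, no filter, DESeq2 1.42.0, limma 3.58.1 voom, the sum of the strand columns, only the 2 groups compared, all 33 libraries in one model, the replicate number as a block, and each library left out. The fit with both WT replicate 4 of 3 months and Cre replicate 1 left out was added after seeing the data. No labels say that libraries of a group came from separate litters, so p-values measure the spread between these libraries.

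The members and lists were chosen with earlier results of these data known. All 7 members are named, and from each pathway list up to 2 called genes that rose most and 2 that fell most at 5 CPM or more, of which the text gives a part; B2m is always among the candidates. Promoters are RefSeq's (GRCm38.p6). The genes most like Fcgr4 are not reported here.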

Additional observations from a re-analysis of the deposited data

Results flagged for a closer look

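The effect on Fcgr1 differed between experiments in direct tests of the difference. Fcgr1 was lower in IRF8KO than in WT at 3 months and 0.46 higher on the log2 scale in Cre than in flox, which did not pass the test. The Cre effect minus the IRF8KO effect was 2.81 on the log2 scale (edgeR's quasi-likelihood test, adjusted p = 0.00975). Likewise, the IRF8KO effect minus the Batf3KO effect on Fcgr1 at 3 months was -2.34 (adjusted p = 0.0404), a call that was lost when any 1 of 12 of the 14 libraries was left out. Each difference comes from a joint fit of both experiments with its own filter and scaling. In none of the 21 sets of 4 libraries tested did 1 library stand apart by Dixon's criterion.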

How the results depend on the processing

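Over the 7 members and 11 comparisons, 1274 values were recomputed: 1138 kept their direction and their side of the threshold, 41 passed the test where they had not, 37 no longer passed, and 58 turned sign. In 5xFAD/IRF8KO against 5xFAD none of the 98 recomputed values changed its call. The number of members called changed as follows where it moved by over 1.5 times or to or from 0. Smaller moves, as in IRF8KO at 9 months, are not listed. The cause of the changes was not tested. In IRF8KO at 3 months it was 1, against 2 with DESeq2, 3 with voom and 0 to 2 with 1 library left out. In 5xFAD it was 2, against 1 with DESeq2-type size factors, 6 with voom, 6 with only the 2 groups and 0 to 1 with 1 library left out. For the interaction it was 0, against 2 with DESeq2, 1 with all 33 libraries and 0 to 1 with 1 left out. In Batf3KO it was 2, against 0 with all 33 libraries. In Cre it was 0, against 2 without a filter, 1 with voom and 0 to 3 with 1 left out. For 9 minus 3 months it was 0, against 1 with DESeq2, 1 with all 33 libraries and 0 to 1 with 1 left out. For Cre minus IRF8KO it was 1, against 2 without a filter, 2 with voom, 1 to 2 with 1 left out and 3 with both doubted libraries left out. For IRF8KO minus Batf3KO it was 1, against 0 to 2 with 1 left out.

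In no comparison did every same-numbered pair deviate together with a correlation over 0.1 (range -0.198 to 0.204), so the numbers were not taken to pair the samples. With the replicate block the number of members called was 1 in 5xFAD, 1 in Batf3KO (Fcer1g, adjusted p = 0.0501, was lost), 0 for Cre minus IRF8KO and 0 for IRF8KO minus Batf3KO.

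Signs turned only for genes that were not called. In 5xFAD/IRF8KO against IRF8KO, Fcgr2b went to -0.0486 (size factors and DESeq2), -0.237 (voom), -0.0054 (2 groups) and -0.0674 (replicate block), and lay between -0.557 and 0.289 with 1 library left out. Fcrls went to 0.0351 (no filter), 0.0123 (all 33) and 0.00515 (replicate block), and lay between -0.158 and 0.0889, and Fcgrt between -0.499 and 0.316. Fcgr2b in IRF8KO at 3 months lay between -0.754 and 0.107. The interaction of Fcgr4 went to 0.0331 (voom; -0.909 to 0.655 with 1 left out), and Fcgr4 in Cre to -0.0425 (replicate block). For 9 minus 3 months, Fcgr3 went to 0.0416 (size factors) and 0.0417 (DESeq2; -0.681 to 0.194 with 1 left out), Fcgr4 to -0.383 (voom) and -0.0856 (replicate block; -0.623 to 0.958), Fcrls to 0.00816 (size factors) and 0.00772 (DESeq2; -0.342 to 0.0752), and Fcgrt to -0.0112 (no filter), -0.147 (voom), -0.00207 (sum of strands) and -0.135 (replicate block; -0.482 to 0.298). For Cre minus IRF8KO, Fcgrt went to -0.0321 (all 33; -0.0702 to 0.333) and Fcer1g lay between -0.0794 and 0.407. For IRF8KO minus Batf3KO, Fcgrt went to -0.0908 (size factors), -0.0568 (no filter) and -0.0897 (DESeq2; -0.0914 to 0.192), Fcgr2b lay between -0.73 and 0.0636, and Fcrls between -0.284 and 0.102. B2m in IRF8KO at 9 months went to 0.0119 (all 33).

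Over all genes, the number called moved by over 1.5 times in most comparisons. It was 970 in IRF8KO at 3 months, against 1655 without a filter, 2049 with DESeq2, 1680 with voom, 3300 with all 33 libraries and 305 to 1128 with 1 left out, and 4136 at 9 months, against 6836 with all 33 libraries and 2266 to 4126. In 5xFAD it was 290, against 163 without a filter, 900 with DESeq2, 3821 with voom, 806 with all 33 libraries, 4546 with only the 2 groups, 105 with the replicate block, and 2 to 102 with 1 left out. In 5xFAD/IRF8KO against 5xFAD it was 4054, against 6783 with all 33 libraries and 2325 to 4055 with 1 left out. In Batf3KO it was 503, against 998 without a filter, 842 with DESeq2, 984 with voom, 10 with all 33 libraries, 216 with the replicate block and 219 to 596 with 1 left out. In Cre it was 0, against 618 without a filter, 164 with DESeq2, 257 with voom and up to 952 with 1 left out. DESeq2-type size factors moved the median of all genes by 0.164 for 9 minus 3 months and by -0.17 for IRF8KO minus Batf3KO, and the share of calls that were higher from 43.8% to 62.5% for the interaction and from 63.7% to 49.3% for IRF8KO minus Batf3KO.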
